A study of Callithrix jacchus with 54 samples.

Results

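Expression of 6 germ cell genes, DAZL, DDX4, DMRT1, TOPAZ1, PRSS21 and DND1, was followed in the common marmoset, from embryonic stem cells (cjESCs) through primordial germ cell-like cells (cjPGCLCs) into xenogeneic reconstituted ovaries (xrOvaries). The members were taken by gene symbol from the deposited expression table. All 6 were found among its 14812 genes, and all 6 were among the 11197 genes that passed a filter on low values. The series holds 54 RNA-seq libraries, 2 for each of 27 conditions, and values are TPM, a transcript abundance scaled for gene length and library total, so that genes of a library can be set side by side. All cells came from the female line CMES40 with a tdTomato reporter at BLIMP1 (PRDM1) and an eGFP reporter at NANOS3.

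The conditions used here were as follows. cjESCs in the medium DK20FA carried the transgenes rtTA, tetO-BLIMP1, SOX17-GR and DD-TFAP2C, and were sorted for TRA-1-60. Those cells were induced with BMP4, LIF, SCF and EGF under Rock inhibitor (BLSE), with the same factors and SOX17 activated by dexamethasone (SOX17 + BLSE), or with activated SOX17 and no BMP4 (SOX17 + LSE), for 12, 24, 48 and 96 h. Dexamethasone was given only with SOX17, and its own part was not tested. cjESCs in the medium PESFA carried none of these transgenes and were also sorted for TRA-1-60. They were pre-treated with IM12, an agonist of WNT signaling, and activin A, and then induced in BLSE with the WNT inhibitor IWR1 (BLSE + IWR1) or with IWR1 and BMS493, which blocks retinoic acid signaling (BLSE + IWR1 + BMS), for the same times. Cells under BLSE + IWR1 were also taken at day 6. Day 6 cjPGCLCs were aggregated with gonadal somatic cells of female mouse embryos, from which the mouse germ cells had been depleted, and were recovered at days 20, 40 and 70. Day 6 counts from the start of induction, whereas days 20, 40 and 70 count the culture in the xrOvary. By the study's methods, the aggregates were first cultured with retinoic acid and then in media with serum. Time, mouse cells, retinoic acid and medium thus changed together between day 6 and the xrOvaries and cannot be told apart. Cells at 96 h with SOX17 or IWR1, at day 6 and in xrOvaries were sorted for tdTomato, whereas all cells were taken from BLSE at 96 h and from every condition at 12 to 48 h. Medium, transgenes and pre-treatment changed together between the 2 series of inductions and cannot be told apart. The labels number the TFAP2C transgene differently in almost every transgenic library, and the name given to the cjESCs is used for all of them. All libraries came from 1 line, and their spread is that between its cultures.

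In the germline, primordial germ cells (PGCs) first carry a set of early factors and then, in contact with gonadal somatic cells, switch on genes for the germ granule, for small RNAs called piRNAs and for meiosis. DAZL is an RNA-binding protein that germ cells need to commit to gametogenesis, and DDX4 (VASA) is an RNA helicase of the germ granule and the usual marker of germ cells in the gonad. DMRT1 is a transcription factor with a DM domain that acts in germ cells and in the testis. TOPAZ1 is a germ cell protein with a PAZ domain needed for male meiosis, PRSS21 (testisin) is a membrane-anchored serine protease of germ cells, and DND1 is an RNA-binding protein that works with NANOS proteins and the CCR4-NOT deadenylase to keep PGCs alive.

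Replicates correlated across genes at 0.977 to 0.994 on the log2(TPM + 1) scale, and the lowest value was that of xrOvary day 20, whose library 2 also had the fewest genes above 0 (10146, against 11441 in library 1). PGC markers SOX17, PRDM1, TFAP2C and NANOS3 were at 99.26 TPM or more in every library of day 6 cjPGCLCs and of the xrOvaries. Of the full list of 9 PGC markers in the data, 7 were at 5 TPM or more in both libraries at each of these days. CD38, of the same list, was listed at 0 in all of these libraries. The cells were sorted for tdTomato at PRDM1, so the PRDM1 level is not independent of the sort. In bulk libraries, fewer cells that express a gene cannot be told apart from less of its RNA per cell. TPM hold no read totals, so depth is unknown, and a gene at 0 is described as listed at 0, with no fold change against it. Differences are on the log2(TPM + 1) scale, and where a condition is at or near 0 their size is set by the pseudocount of 1, so some are also given with a pseudocount of 0.1. A difference was called when log2(TPM + 1) differed by more than 2 (4-fold), with an adjusted p under 0.01 in limma's moderated test over all 11197 genes and a mean log2 value of the 2 conditions above 1.5. With 2 libraries against 2, the smallest two-sided p of an exact permutation test is 0.33, so each call rests on the spread pooled over the 27 conditions. Conditions in which both libraries of a gene were at 0 add no spread to it. For genes at 0 in many conditions the SE and p can thus be too small.

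DAZL, DDX4, TOPAZ1 and PRSS21 were at 0.34 TPM or less in day 6 cjPGCLCs, and each had its highest mean level in xrOvaries at day 40 or day 70. DMRT1 was already present in day 6 cjPGCLCs, and DND1 was among the abundant transcripts there. In steps from one day to the next, DMRT1 was called higher at day 20, PRSS21 at day 40, and DAZL and TOPAZ1 at day 70. At day 70 the mean levels ran from 2.45 TPM for DDX4 to 324 TPM for DND1.

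**Figure D1:**
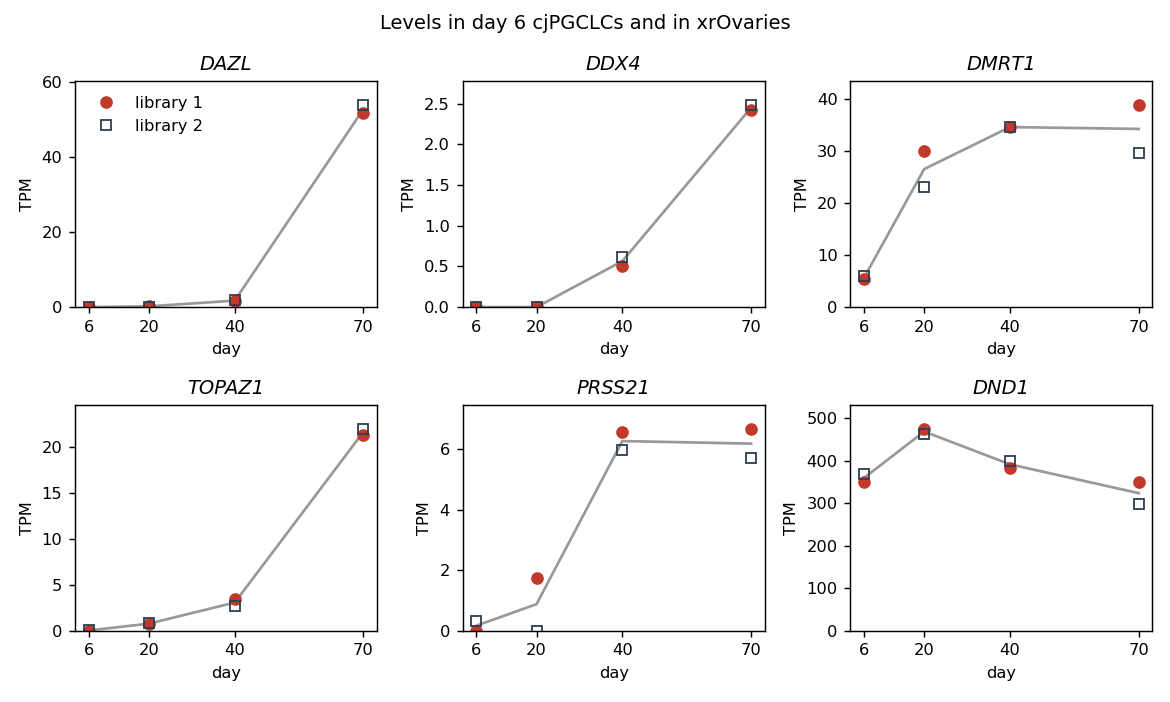
TPM of each gene (vertical axis, separate scale for each panel) against day (horizontal axis) in day 6 cjPGCLCs and in tdTomato-positive cells of xrOvaries at days 20, 40 and 70. Day 6 is a day of induction and the later days are days of xrOvary culture, so distances from day 6 on the axis are not elapsed time. Filled circles and open squares are the 2 libraries of a day and the line joins their means. DAZL stands at 1.64 and 1.81 TPM at day 40 and at 51.9 and 53.9 TPM at day 70, whereas DND1 stays between 298 and 475 TPM.

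DAZL was listed at 0 in both libraries of day 6 cjPGCLCs. It measured 0.39 and 0 TPM at day 20, 1.64 and 1.81 TPM at day 40, and 51.88 and 53.9 TPM at day 70. The day 70 libraries lay far above all others, since the highest value in the remaining 52 libraries was 4.76 TPM, in a library of cjESCs in DK20FA. Between day 40 and day 70, DAZL rose 19.8-fold on the TPM + 1 scale (log2 difference 4.31, SE 0.33, adjusted p = 1.04e-11, limma), and the libraries of the 2 days did not overlap. Against day 6, where it was listed at 0, the log2(TPM + 1) difference was 5.75 (SE 0.33, adjusted p = 1.03e-16, limma), and with a pseudocount of 0.1 it was 9.05. From day 20 to day 40 the difference of 1.21 (SE 0.33, adjusted p = 0.016, limma) was not called.

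DDX4 was also highest at day 70, at a much lower level. It was listed at 0 in both libraries at day 6 and in both at day 20, and measured 0.51 and 0.62 TPM at day 40 and 2.42 and 2.48 TPM at day 70. The day 70 libraries were the highest of the 54, and the next highest value was 0.8 TPM in cjESCs in DK20FA. The log2 difference of day 70 from day 40 was 1.14 (SE 0.20, adjusted p = 0.00019, limma) and that from day 6 was 1.79 (SE 0.20, adjusted p = 2.14e-09, limma). Both passed the threshold on p, neither reached 2, and DDX4 was called in none of the comparisons. Their size depended on the pseudocount. With 0.1 the difference from day 6 was 4.67 (adjusted p = 2.04e-06, limma), over the threshold of 2 but not called at its low mean level, and that from day 40 was 1.94 (adjusted p = 0.12, limma). The filter on low values was passed by DDX4 in the 2 libraries of day 70 alone, so that a difference of day 70 from the other conditions is built into its presence among the genes tested.

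TOPAZ1 was listed at 0 in library 1 of day 6 cjPGCLCs and measured 0.06 TPM in library 2. At day 20 it measured 0.73 and 0.83 TPM, at day 40 it measured 3.5 and 2.65 TPM, and at day 70 it reached 21.36 and 21.97 TPM. Every library of a later day lay above every library of the day before it. TOPAZ1 rose 5.59-fold on the TPM + 1 scale from day 40 to day 70 (log2 difference 2.48, SE 0.23, adjusted p = 8.83e-10, limma) and was also called higher at day 70 than at day 6 (log2 difference 4.46, SE 0.23, adjusted p = 6.47e-18, limma, and 7.43 with a pseudocount of 0.1). The steps from day 6 to day 20 (log2 difference 0.79, adjusted p = 0.0088, limma) and from day 20 to day 40 (1.19, adjusted p = 0.00063, limma) passed the threshold on p and were under 4-fold. Only libraries of days 40 and 70 carried TOPAZ1 over the filter, which had the same effect as for DDX4.

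PRSS21 was called higher in an earlier step than DAZL and TOPAZ1. It measured 0 and 0.34 TPM in day 6 cjPGCLCs, 1.76 and 0 TPM at day 20, 6.58 and 5.96 TPM at day 40, and 6.67 and 5.7 TPM at day 70. Days 40 and 70 overlapped, and both lay above every library of days 6 and 20. PRSS21 rose 4.37-fold on the TPM + 1 scale from day 20 to day 40 (log2 difference 2.13, SE 0.36, adjusted p = 9.96e-05, limma) and was called higher at day 70 than at day 6 (log2 difference 2.63, SE 0.36, adjusted p = 1.54e-07, limma, and 4.90 with a pseudocount of 0.1). Both calls depended on single libraries. Without xrOvary day 20 library 2, in which PRSS21 was listed at 0, the step from day 20 to day 40 was 1.40 (adjusted p = 0.029, limma), and without day 20 library 1 it was 2.86 with a mean level under the threshold. The call of day 70 against day 6 was lost on the mean level without day 6 library 2 (log2 difference 2.84) or without day 70 library 1 (2.53). When only the libraries compared were fitted, the step from day 20 to day 40 had an SE of 0.61.

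DMRT1 rose at the first xrOvary time point. It measured 5.4 and 5.95 TPM in day 6 cjPGCLCs, 29.99 and 23.17 TPM at day 20, 34.61 and 34.75 TPM at day 40, and 38.88 and 29.75 TPM at day 70. All 6 xrOvary libraries lay above all 48 others, of which the highest was 16.35 TPM, in SOX17 + LSE at 96 h. From day 6 to day 20, DMRT1 rose 4.10-fold on the TPM + 1 scale (log2 difference 2.04, SE 0.24, adjusted p = 2.09e-08, limma). This value sits at the threshold, and without day 20 library 1 (1.86) or without day 6 library 1 (1.98) it was under 4-fold. The rise from day 6 to day 70 was 5.25-fold (log2 difference 2.39, SE 0.24, adjusted p = 1.84e-10, limma). Days 40 and 70 overlapped.

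DND1 differed from the other members in being expressed in every condition. It was above 0 in 54 of 54 libraries, with a median of 109 TPM, and so its pattern is not that of a late gene. It measured 351 and 368 TPM in day 6 cjPGCLCs, 475 and 463 TPM at day 20, 383 and 401 TPM at day 40, and 350 and 298 TPM at day 70. The day 20 libraries were the highest of the series. None of the steps passed the test, and day 70 against day 6 gave a log2 difference of -0.16 (95% confidence interval -0.67 to 0.36, adjusted p = 0.68, limma), whose sign turned under both other scalings (0.11 with median-ratio scaling and 0.04 with quantile normalization).

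**Figure D2:**
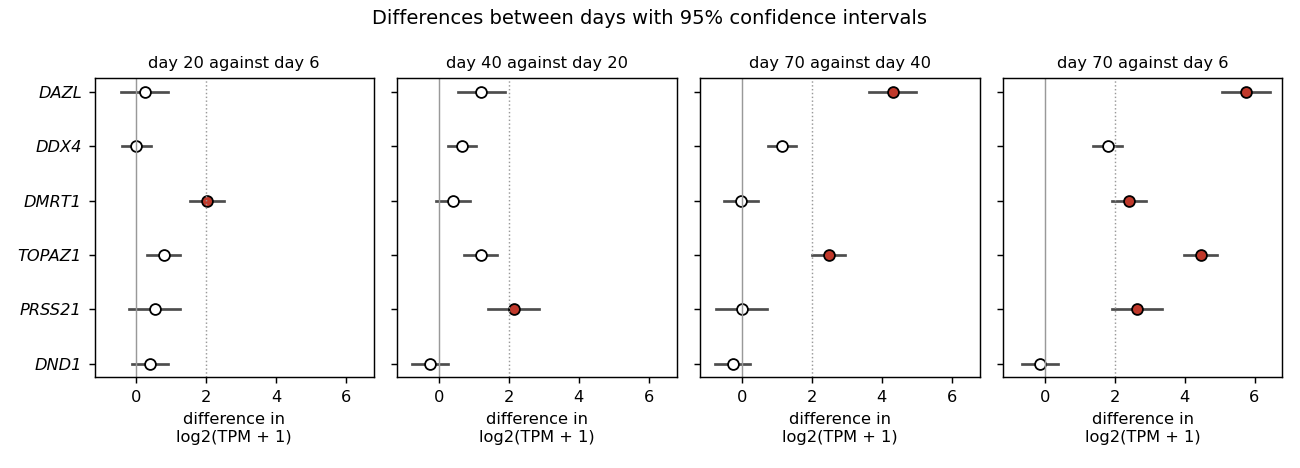
Difference in log2(TPM + 1) of each gene (horizontal axis) with its 95% confidence interval from limma, in 4 comparisons of days. Filled points were called, open points were not, and the dotted line marks the 4-fold threshold. DMRT1 is filled for day 20 against day 6, PRSS21 for day 40 against day 20, and DAZL and TOPAZ1 for day 70 against day 40.

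The number of members called can be read beside the share of all 11197 genes called. From day 6 to day 20, 1 of 6 members was called higher and 0 lower, against 2.3% of all genes in either direction (0.598% higher and 1.7% lower). From day 20 to day 40 it was 1 of 6 against 0.205% of all genes, and from day 40 to day 70 it was 2 of 6 against 0.214%. From day 6 to day 70, 4 of 6 members were called higher and 0 lower, against 5.39% of all genes (1.05% higher and 4.34% lower). The members were chosen as late germ cell genes, and some passed the filter through the late libraries, so these counts describe the members and carry no test. These comparisons share libraries with each other. The median of all genes moved by -0.20 on the log2 scale from day 6 to day 70 and by 0.00 after median-ratio scaling, and the split of called genes was 118 higher to 486 lower in the deposited TPM and 178 to 352 after quantile normalization. The same 4 member calls stood under both scalings.

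Cells other than germ cells could move with these days. Of the list of gonadal somatic markers, 14 genes are in the table. Their summed level was 61.1 to 78.3 TPM at day 6, 26.5 to 34.7 TPM at day 20, 25.8 to 27.3 TPM at day 40 and 22.1 to 23.7 TPM at day 70, and NR5A1, NR2F2 and TCF21 were listed at 0 in all 6 xrOvary libraries. PDGFRA made up most of the sum at day 70 (17.96 and 19.5 TPM). The 10 fibroblast and stroma markers summed to 1002 to 1019 TPM at day 6 and to 359 to 362 TPM at day 70, of which FBLN1 gave 358 and 356 TPM, while LUM and COL6A3 were listed at 0 in all 6 xrOvary libraries. The 8 endothelial markers summed to 42.3 to 49.7 TPM at day 6 and to 14.9 to 17.9 TPM at day 70, with EMCN listed at 0. The host cells were of mouse origin and reads were aligned to the marmoset genome, and the part of any mouse RNA in these values was not tested. The summed level of 9 PGC markers went from between 3354 and 3585 TPM at day 6 to between 1859 and 1877 TPM at day 70, and SOX17 from 617 and 708 TPM to 256 and 290 TPM.

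**Figure D3:**
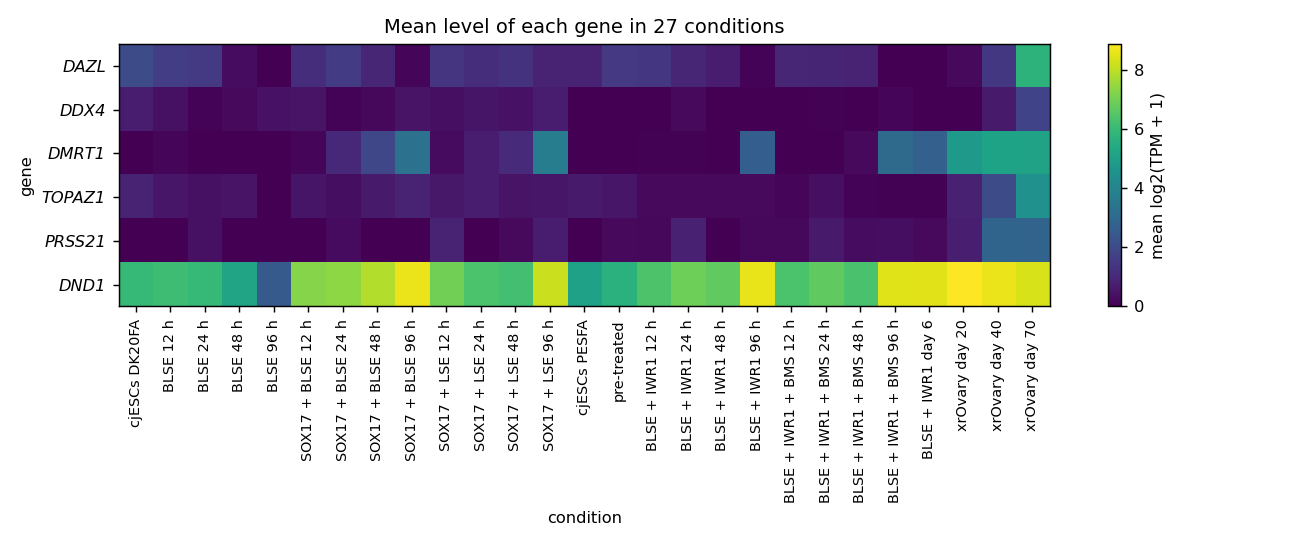
Mean log2(TPM + 1) of each gene (rows, colour scale at the right) in the 27 conditions (columns, 2 libraries each). DND1 is bright in most conditions and darkest in BLSE at 96 h. DMRT1 appears by 24 h in the SOX17 conditions and in sorted cells at 96 h in the IWR1 conditions, and brightens in xrOvaries. DAZL, TOPAZ1 and PRSS21 stand out in xrOvaries at day 40 or day 70.

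Across the 48 libraries before aggregation, DAZL was above 0 in 39, with a median of 1.095 TPM and a highest value of 4.76 TPM. cjESCs in DK20FA (1.9 and 4.76 TPM) held the second place in its order of conditions, and from there to the bottom each condition overlapped with the next in the order. DAZL was listed at 0 in both libraries of day 6 cjPGCLCs, of BLSE at 96 h and of BLSE + IWR1 + BMS at 96 h. In SOX17 + BLSE at 96 h, DAZL measured 0 and 0.17 TPM. The sorted cells of BLSE + IWR1 at that time gave 0.12 and 0 TPM. The highest sorted cells at 96 h were those of SOX17 + LSE, with 0.42 and 1.33 TPM. Against cjESCs in DK20FA, BLSE at 96 h was lower by a log2 difference of -2.03 (SE 0.33, adjusted p = 5.07e-06, limma), which was not called because its mean level was under the threshold. Against cjESCs in PESFA (0.33 and 1.49 TPM), day 6 cjPGCLCs differed by -0.86 (SE 0.33, adjusted p = 0.027, limma), also not called.

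DDX4 was above 0 in 26 of these 48 libraries and never above 0.8 TPM. It was listed at 0 in both libraries of cjESCs in PESFA, of pre-treated cells and of BLSE + IWR1 at 12, 48 and 96 h, as well as at day 6. TOPAZ1 was above 0 in 42 of the 48 libraries, at most at 1.33 TPM, and was listed at 0 in both libraries of BLSE at 96 h. Its level of 0.39 and 1.33 TPM in SOX17 + BLSE at 96 h overlapped with that of cjESCs in DK20FA (0.58 and 1.09 TPM). PRSS21 was above 0 in 18 of the 48 libraries, and its highest value, 2.16 TPM in BLSE + IWR1 at 24 h, stood beside a replicate listed at 0. At these levels most neighbours in the order of conditions overlapped.

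DMRT1 was the member that appeared during induction. It was listed at 0 in all 4 cjESC libraries, in pre-treated cells and in BLSE at 24, 48 and 96 h. With enforced SOX17 and BLSE it measured 0.18 and 0 TPM at 12 h, 0.94 and 1.15 TPM at 24 h, 1.71 and 4.1 TPM at 48 h, and 9.06 and 9.17 TPM in the sorted cells at 96 h. Each of these times lay above the one before it with no overlap. With SOX17 + LSE it measured 0.22 and 0.2 TPM at 12 h, 0.59 and 0.66 TPM at 24 h, 0.81 and 1.48 TPM at 48 h, and 16.35 and 8.95 TPM at 96 h. Without SOX17, in BLSE + IWR1, it was at most 0.08 TPM up to 48 h and measured 5.77 and 4.8 TPM at 96 h, and with BMS it measured 8.85 and 6.2 TPM at 96 h. DMRT1 thus passed 0.33 TPM in libraries of all cells in both SOX17 conditions, and in the 2 IWR1 conditions only in sorted cells.

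At 96 h, DMRT1 in SOX17 + BLSE differed from BLSE by a log2 difference of 3.34 (SE 0.24, adjusted p = 2.05e-14, limma), which was called. At 96, 48 and 24 h the gene was listed at 0 in BLSE. At 24 h (1.03, adjusted p = 0.0027, limma) and at 48 h (1.89, SE 0.24, adjusted p = 1.29e-07, limma) the difference passed the threshold on p and was under 2. With a pseudocount of 0.1 the differences at 24, 48 and 96 h were 3.51, 4.79 and 6.53. Day 6 cjPGCLCs differed from cjESCs in PESFA, where DMRT1 was listed at 0, by 2.74 (SE 0.24, adjusted p = 4.64e-12, limma), and by 5.85 with a pseudocount of 0.1. The mean level of 1.37 was under the one required for a call. The difference between SOX17 + BLSE and SOX17 + LSE at 48 h was 0.81 (SE 0.24, adjusted p = 0.018, limma) and was not called.

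**Figure D4:**
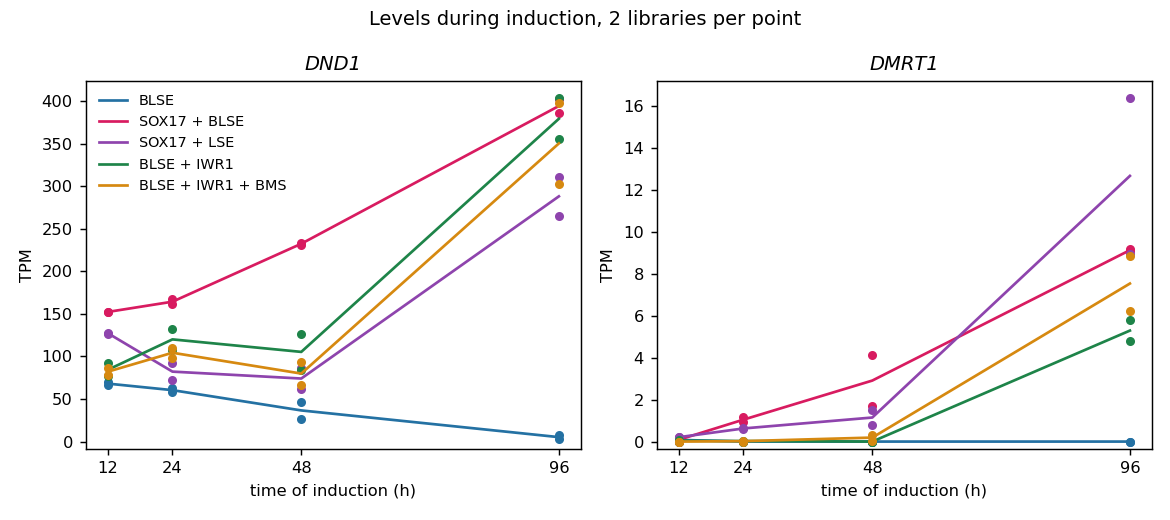
TPM of DND1 (left) and DMRT1 (right) against time of induction in hours under 5 conditions (colours). Points are libraries, 2 at each time, and lines join their means, with tdTomato-positive cells at 96 h in all conditions except BLSE. DND1 goes from 69.5 and 66.7 TPM to 2.63 and 7.8 TPM in BLSE and from 152 and 153 TPM to 403 and 386 TPM in SOX17 + BLSE.

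The levels of DND1 parted under BLSE with and without SOX17. In BLSE alone it measured 69.5 and 66.7 TPM at 12 h, 58.5 and 62.4 TPM at 24 h, 47.0 and 26.3 TPM at 48 h, and 2.63 and 7.8 TPM at 96 h, which was the lowest condition of the 27. In SOX17 + BLSE it measured 152 and 153 TPM at 12 h, 161 and 167 TPM at 24 h, 231 and 234 TPM at 48 h, and 403 and 386 TPM at 96 h. cjESCs in DK20FA, from which both started, measured 59.0 and 61.1 TPM. The log2 difference of SOX17 + BLSE from BLSE was 1.15 at 12 h (SE 0.25, adjusted p = 0.0036, limma), 1.43 at 24 h (adjusted p = 0.000102, limma), 2.69 at 48 h (SE 0.25, adjusted p = 2.34e-10, limma) and 6.13 at 96 h (SE 0.25, adjusted p = 4.07e-21, limma), of which the last 2 were called. The 2 libraries of BLSE at 96 h lay apart, and the difference there was 5.49 without library 1 and 6.77 without library 2, both called. The difference at 48 h was between libraries of all cells. DND1 in BLSE at 96 h fell by 3.43 on the log2 scale against cjESCs in DK20FA (SE 0.25, adjusted p = 8.41e-14, limma), and the difference was -2.80 without library 1 of BLSE and -4.07 without library 2.

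Without BMP4 the course of DND1 was not steady. In SOX17 + LSE it measured 127 and 127 TPM at 12 h, 72.4 and 92.1 TPM at 24 h, 61.7 and 86.5 TPM at 48 h, and 311 and 265 TPM in the sorted cells at 96 h. The libraries of SOX17 + BLSE and SOX17 + LSE did not overlap at any of the 4 times. The log2 difference was 0.26 at 12 h (adjusted p = 1, limma), between 0.49 and 1.51 at 24 h (95% confidence interval, adjusted p = 0.012, limma), 1.66 at 48 h (SE 0.25, adjusted p = 8.02e-06, limma) and 0.46 at 96 h (SE 0.25, adjusted p = 0.27, limma), and none was called. At 48 h all cells were taken and at 96 h the tdTomato-positive cells, so time and sort cannot be told apart between the last 2 points.

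In the IWR1 conditions DND1 was highest at 96 h. BLSE + IWR1 measured 91.8 and 77.2 TPM at 12 h, 133 and 107 TPM at 24 h, 126 and 84.7 TPM at 48 h, and 404 and 355 TPM in sorted cells at 96 h. With BMS the values were 78.5 and 86.0 TPM, 110.4 and 98.4 TPM, 66.9 and 93.0 TPM, and 303 and 398 TPM at the same times. The conditions with and without BMS overlapped at all 4 times. Day 6 cjPGCLCs (351 and 368 TPM) overlapped with BLSE + IWR1 at 96 h. Against cjESCs in PESFA (42.2 and 25.6 TPM), DND1 in day 6 cjPGCLCs rose 10.6-fold on the TPM + 1 scale (log2 difference 3.41, SE 0.25, adjusted p = 5.49e-14, limma).

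For day 6 cjPGCLCs against cjESCs in PESFA, 1 of 6 members was called, beside 7.99% of all genes. For SOX17 + BLSE against BLSE at 96 h, 2 of 6 members were called, beside 8.68% of all genes. That comparison sets sorted cells against all cells, and the summed level of 9 PGC markers was 3374 to 3630 TPM in the former and 328 to 376 TPM in the latter. There the median of all genes moved by 0.24 on the log2 scale, and the split of called genes was 531 higher to 441 lower in the deposited TPM and 416 to 552 after median-ratio scaling. DMRT1 and DND1 were called higher under each scaling. At 12, 24 and 48 h, where all cells were taken, 0, 0 and 1 of 6 members were called, beside 0.161%, 0.518% and 2.02% of all genes. At 12 and 24 h, limma gave 1 and 2 of 6 members with an unadjusted p under 0.05, beside 1663 and 2925 of all 11197 genes. For BLSE at 96 h against cjESCs in DK20FA, 1 of 6 was called, beside 6.12%.

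No member was called by limma in the remaining comparisons. For BLSE + IWR1 + BMS against BLSE + IWR1 at 96 h, with 0.0357% of all genes called, and for day 6 against 96 h of BLSE + IWR1, with 0.161%, the number of members with an unadjusted p under 0.05 was 0 in each, beside 1750 and 2058 of all 11197 genes. For BLSE + IWR1 against SOX17 + BLSE at 96 h, with 0.572% of all genes called, it was 3 of 6 members, beside 2729 of all genes. The DMRT1 difference there was -0.69 (95% confidence interval -1.18 to -0.20, adjusted p = 0.056, limma). For SOX17 + BLSE against SOX17 + LSE at 12, 24, 48 and 96 h, 0.0893%, 0.214%, 1.02% and 0.768% of all genes were called. At an unadjusted p under 0.05 there were 1, 2, 2 and 1 of 6 members, beside 724, 1671, 2677 and 2852 of all genes. The 95% confidence interval of DMRT1 for BMS at 96 h ran from -0.06 to 0.91, and that of DND1 from -0.64 to 0.39.

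Genes of the pathways around the members were read from day 6 to day 70. Between these days 1.05% of all genes were called higher and 4.34% lower. The filter on low values could be passed in any 1 library, so a list gene can be among those tested through its late level alone. A rise is then built into its presence. The counts and medians of the lists below therefore describe the genes tested and carry no test. Of the germ granule and piRNA list, to which DDX4 belongs, 16 genes were tested, 5 rose and 0 fell, and the median log2 difference was 1.48, beside -0.20 for all genes. TDRD12, a Tudor domain protein of piRNA production, measured 0.49 and 0.38 TPM at day 6, 4.19 and 3.48 TPM at day 40, and 26.6 and 32.1 TPM at day 70 (log2 difference 4.40, SE 0.25, adjusted p = 4.46e-17, limma). ASZ1, a germ granule protein at the mitochondrial surface, was listed at 0 at day 6 and measured 1.38 and 0.77 TPM at day 40 and 14.2 and 16.5 TPM at day 70. Both were called higher from day 40 to day 70, as was DAZL. MOV10L1, a helicase that handles piRNA precursors, was already called higher at day 20, with 5.65 and 6.03 TPM at day 6, 34.1 and 28.8 TPM at day 20, and 57.4 and 66.5 TPM at day 70.

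GTSF1, a partner of PIWI proteins, measured 1.33 and 0.9 TPM at day 6, 6.78 and 0 TPM at day 20, and 29.2 and 36.5 TPM at day 70 (16.0-fold on the TPM + 1 scale, adjusted p = 2.32e-06, limma). MAEL, a piRNA factor, measured 7.06 and 7.07 TPM at day 6, 22.2 and 17.1 TPM at day 20, 47.0 and 32.5 TPM at day 40, and 69.4 and 72.4 TPM at day 70. It rose 8.91-fold on the TPM + 1 scale (log2 difference 3.16, SE 0.27, adjusted p = 3.00e-12, limma). PIWIL2, a PIWI protein that binds piRNAs, measured 0.3 and 0.23 TPM at day 6 and 2.37 and 2.1 TPM at day 70. It was not called (log2 difference 1.35, SE 0.17, adjusted p = 1.93e-08, limma).

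**Figure D5:**
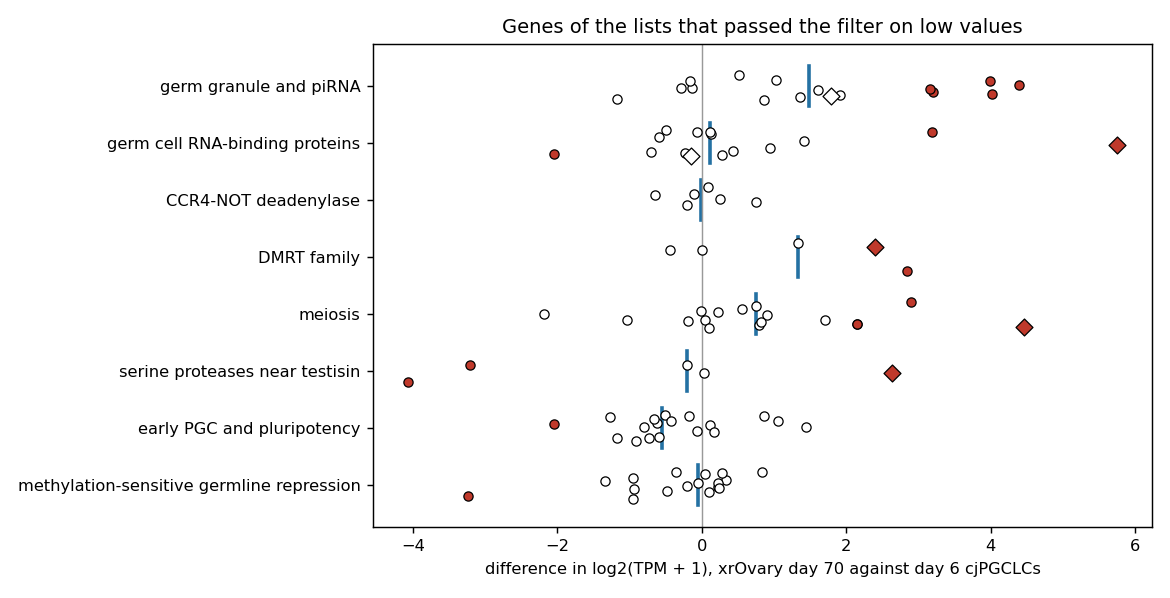
Difference in log2(TPM + 1) between xrOvary day 70 and day 6 cjPGCLCs (horizontal axis) for each gene of 8 lists that passed the filter on low values. Filled symbols were called, diamonds are the 6 members, and blue bars are list medians. The germ granule and piRNA list has 5 filled symbols to the right and 0 to the left, and its median is 1.48.

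Of the list of germ cell RNA-binding proteins, which holds DAZL and DND1, 15 were tested, 2 rose and 1 fell, with a median log2 difference of 0.12. Beside DAZL, YBX2, a germ cell protein that binds and stores mRNA, went from 1.38 and 2.43 TPM at day 6 to 14.8 and 10.6 TPM at day 20 and 26.5 and 23.6 TPM at day 70 (log2 difference 3.19, SE 0.29, adjusted p = 1.43e-11, limma). NANOS3, of the family that DND1 works with, fell by 2.05 on the log2 scale (SE 0.29, adjusted p = 3.89e-07, limma), from 394 and 487 TPM to 110.4 and 99.3 TPM. That fall was under 4-fold after median-ratio scaling (-1.79) and quantile normalization (-1.85), and without day 6 library 2 (-1.90) or day 70 library 2 (-1.98). Of the CCR4-NOT deadenylase, 6 subunits were tested and 0 were called (median log2 difference -0.01, limma).

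Of the DMRT family, 5 genes were tested, 2 rose and 0 fell, with a median log2 difference of 1.33. DMRT3 stands next to DMRT1 in the RefSeq gene order of marmoset. It measured 0.38 and 0.52 TPM at day 6, 7.78 and 19.3 TPM at day 20, 12.5 and 11.6 TPM at day 40, and 9.7 and 9.03 TPM at day 70. Against day 6 it was called at day 20 (log2 difference 3.21, SE 0.27, adjusted p = 6.58e-12, limma) and at day 70 (2.84, SE 0.27, adjusted p = 4.07e-11, limma). KANK1, on the other side of DMRT1, measured 1.75 and 2.25 TPM at day 6 and 1.57 and 2.77 TPM at day 20, and these overlapped.

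The genes next to the other members, chosen after the members' values were seen, were looked up in the same order. SLC38A9, next to DDX4, measured 2.68 and 4.46 TPM at day 6 and 2.53 and 3.48 TPM at day 70. TCAIM, next to TOPAZ1, measured 2.94 and 2.66 TPM and 2.92 and 3.79 TPM. PRSS41, a protease gene next to PRSS21, measured 3.9 and 0.49 TPM and 1.88 and 1.64 TPM. WDR55, next to DND1, measured 39.8 and 42.5 TPM at day 6 and 15.6 and 18.7 TPM at day 70 (log2 difference -1.22, SE 0.14, adjusted p = 2.62e-09, limma), and HARS1 on the other side measured 164 and 163 TPM and 189 and 187 TPM. RFTN1, next to DAZL, was listed at 0 at both days. RFTN1 was not tested, and none of the others named here was called.

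Of the meiosis list, which holds TOPAZ1, 17 of 31 genes in the table were tested, 4 rose and 0 fell, with a median log2 difference of 0.75. Beside TOPAZ1 these were TEX11, SPATA22 and SYCE3. TEX11, which acts in meiotic recombination, measured 1.69 and 0.63 TPM at day 6 and 13.2 and 16.2 TPM at day 70 (log2 difference 2.90, SE 0.31, adjusted p = 5.91e-10, limma). SPATA22, a partner of MEIOB in recombination, measured 1.38 and 3.27 TPM and 13.7 and 12.6 TPM, and without day 6 library 1 its log2 difference went from 2.15 to 1.73. SYCE3, of the synaptonemal complex, measured 8.48 and 1.64 TPM and 17.8 and 25.2 TPM. Its log2 difference of 2.15 (SE 0.64, adjusted p = 0.0062, limma) was 3.07 without day 6 library 1, and it lost its call without day 6 library 2 (1.23), without day 70 library 1 (2.39, adjusted p = 0.018) and without day 70 library 2 (1.91). STRA8, SYCP3 and REC8, chosen after their values were seen, are genes of meiotic entry and of meiotic chromosomes, and none exceeded 0.85 TPM in a day 70 library. STRA8 measured 3.09 and 4.09 TPM at day 6 and was listed at 0 at day 70.

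Of the serine protease list, which holds PRSS21, 5 were tested, 1 rose and 2 fell. The median log2 difference was -0.21, beside -0.20 for all genes. PRSS16, a protease known from the thymus, fell by 4.06 on the log2 scale (SE 0.23, adjusted p = 8.17e-17, limma), from 169 and 206 TPM at day 6 to 29.0 and 18.7 TPM at day 20 and 8.42 and 12.4 TPM at day 70. PRSS8 (prostasin), an epithelial membrane protease, measured 7.22 and 9.45 TPM at day 6 and was listed at 0 at day 70 (log2 difference -3.21, SE 0.31, adjusted p = 6.79e-11, limma). PRSS21 was thus the 1 gene of its list called higher.

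Of the early PGC and pluripotency list, 18 genes were tested, 0 rose and NANOS3 alone fell (median log2 difference -0.55). Of a list of DNA methylation and germline repression genes, 17 were tested, 0 rose and DNMT3L, the cofactor of the de novo DNA methyltransferases, alone fell (median log2 difference -0.05). Over all genes, 4.34% were called lower and the median was -0.20. Beside that share, 1 gene called in each of these lists is not a result about the list. DNMT3L measured 10.9 and 13.7 TPM at day 6, 1.59 and 0 TPM at day 20, and 0.18 and 0.65 TPM at day 70 (log2 difference -3.24, SE 0.38, adjusted p = 7.05e-09, limma).

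The genes whose pattern was most like each member were found by Pearson correlation of mean log2(TPM + 1) over the 27 conditions, given here as a description. For DMRT1 the nearest were GPHA2 (r = 0.978), AVIL (0.971), GPNMB (0.971), CPEB1 (0.968) and HERC5 (0.968). For TOPAZ1 they were SHOC1 (0.968), SLC12A1 (0.950), TDRD12 (0.944), FAM47C (0.937) and DCAF4L2 (0.927). For PRSS21 they were CBLN4 (0.939), MAGEB18 (0.928), RNF17 (0.920), TLX1 (0.917) and ONECUT1 (0.915). For DND1 they were RTN4RL1 (0.949), NUP210 (0.925), PIAS4 (0.923), ERAS (0.921) and RPA1 (0.920). For DAZL they were RP1 (0.894), USP29 (0.868), RAB41 (0.865), FAM47C (0.856) and STK32A (0.847). For DDX4 they were ASZ1 (0.886), SHOC1 (0.867), HOXA4 (0.861), TOPAZ1 (0.847) and CCDC172 (0.828). The 27 means include conditions in which DAZL, DDX4, TOPAZ1 and PRSS21 were near or at 0, and which conditions carry each correlation was not tested. By rank the likeness held for few pairs. Most of the genes named were no longer among the 5 most alike by Spearman correlation. Those of DMRT1 stood at ranks 80 to 683 of 10876 genes. Spearman rho of the pairs named ran from 0.10 (TOPAZ1 with TDRD12) to 0.92 (DND1 with RTN4RL1).

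Among the members themselves, the highest correlations over the 27 condition means were those of DDX4 with TOPAZ1 (0.847), DAZL with TOPAZ1 (0.843) and TOPAZ1 with PRSS21 (0.804). DMRT1 and DND1 correlated at 0.764 with each other. DAZL and DND1 correlated at 0.07, and DAZL and DMRT1 at 0.18. The members were chosen as late germ cell genes, so these values are a description. DAZL, DDX4 and TOPAZ1 had means of 52.89, 2.45 and 21.66 TPM at day 70. In any other condition their means were at most 3.33, 0.655 and 3.075 TPM. Which conditions carry these correlations was not tested.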

How the data were processed

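RNA-seq libraries (poly(A) selection, directional kit) were prepared in duplicate for 27 conditions. Per the labels and methods, the authors aligned single-end reads with STAR to the marmoset assembly and estimated abundances with RSEM, and the deposited values are TPM per gene. Sums per library ran from 790300 to 839203 TPM. Depth is not given by TPM, and 0 columns were left unused.

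Here the TPM were put on the log2(TPM + 1) scale, and a gene was tested if 1 or more libraries reached 1.5. With limma 3.58.1 in R 4.3.3, 1 mean per condition was fitted over the 54 libraries (27 residual degrees of freedom, intensity trend), with two-sided tests adjusted by Benjamini-Hochberg over 11197 genes. The authors' own tool for DEGs needs counts and was not used. The script was tested on simulated data.

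In all, 10 comparisons were planned and 7, namely SOX17 + BLSE against BLSE or SOX17 + LSE before 96 h and BLSE at 96 h against cjESCs, were added after values were seen. The members and lists were chosen with earlier results of these data known. Named genes are the members, the 5 genes most like each, the late genes that the study names, and up to 4 called genes per list, and others are said to be chosen afterwards. Alternatives were another pseudocount, no filter, only the libraries compared, a replicate block, 2 other scalings, no trend, each library left out and, added after seeing the data, no threshold on the mean level. All 6 members were matched by gene ID to a RefSeq table of another marmoset assembly, used only for gene order, so no coordinates are given.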

Additional observations from a re-analysis of the deposited data

How the results depend on the processing

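With 2 libraries per condition, values just over a threshold can move across it. When the fit held only the 4 libraries of a comparison, the members called went to 0 for day 20 against day 6, day 40 against day 20, day 70 against day 40, SOX17 + BLSE against BLSE at 48 h and BLSE at 96 h against cjESCs in DK20FA. Few residual degrees of freedom remain there, and over all genes the calls in 11 of the 17 comparisons went to 0 (from between 4 and 257), in others from 226 to 97, from 114 to 2 and from 685 to 417. With a pseudocount of 0.1 the members called for day 40 against day 20 went from 1 to 0 (PRSS21, 3.88, adjusted p = 0.036, limma), while calls over all genes went from 23 to 45. Without the threshold on the mean level, 2 members were called for day 6 against cjESCs in PESFA and 2 for BLSE at 96 h against cjESCs in DK20FA, as DMRT1 and DAZL were added. Leaving out each library in turn gave 0 to 1 members called for day 20 against day 6, 0 to 1 for day 40 against day 20, and 3 to 4 for day 70 against day 6. The difference of DND1 between day 70 and day 6 turned from -0.16 to 0.11 with median-ratio scaling and to 0.04 with quantile normalization. Of 61 further pairs of a member and a comparison, with an adjusted p of 0.05 or more, 25 changed sign under an alternative, so the signs of these differences are not results. Calls over all genes also moved by more than 1.5 times for BLSE + IWR1 with against without BMS (4 to 2 with the other pseudocount, no filter or no trend) and for day 6 against 96 h (18 to 28 with the other pseudocount and to 11 with median-ratio scaling). With single libraries left out they ran from 16 to 38 for day 40 against day 20, from 0 to 9 for BMS, from 12 to 28 for day 6 against 96 h and from 41 to 98 for BLSE + IWR1 against SOX17 + BLSE at 96 h.

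The replicate numbers are shared between conditions, but nothing says that they mark a shared culture. Across genes, deviations of same-numbered libraries correlated between -0.06 and 0.29 over the comparisons. A fit with the replicate block changed no call of a member, with 4 members called for day 70 against day 6, 2 for SOX17 + BLSE against BLSE at 96 h and 1 for day 20 against day 6. Of the 30 most alike genes, 27 were kept over the libraries and 3 by Spearman correlation.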
